A study of Mus musculus with 4 samples.

Results

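The loci described here belong to the machinery that couples nerve signals to contraction in skeletal muscle, and to its energy supply: Cacna1s, Ryr1, Casq1, Atp2a1, Chrnd, Chrng and Ckm. Occupancy by the splice isoforms Mef2Da1 and Mef2Da2 of the transcription factor Mef2D was read in 6 windows of the mouse build mm9, each a gene (Chrnd and Chrng together) with about 50 kb on each side. The windows held 28 of the 19749 combined regions in the authors' table, 10 of the 8872 listed Mef2Da1 peaks and 17 of the 10105 listed Mef2Da2 peaks. Membership rests on proximity alone, and no expression was measured, so a region is not assigned to the gene whose window holds it.

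DNA bound by each isoform was sequenced after chromatin immunoprecipitation (ChIP-seq) from C2C12 cells, called C2 myoblasts in the protocols, which are mouse muscle precursors that fuse into myotubes in low serum. Cells were differentiated for 5 days in 2% horse serum with insulin and transferrin, and this was shared by all groups. The 4 groups had 1 library each: Mef2Da1 and Mef2Da2, in which the endogenous isoform was precipitated with an antibody raised to a peptide of its own, and Mef2Da1-BLOCK and Mef2Da2-BLOCK, in which the same antibody had been blocked with its peptide. A clonal line in culture without nerve stands in for muscle here. With 1 library per group there was no replicate error and no test between groups, and every difference below compares libraries. The number of reads per library is unknown, so no interval was given for a height.

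Muscle contraction starts at the neuromuscular synapse, where acetylcholine opens a receptor channel that holds the delta subunit encoded by Chrnd and, in embryonic and denervated muscle, the gamma subunit encoded by Chrng. The muscle action potential is sensed by Cav1.1, the product of Cacna1s, which opens the calcium release channel of the sarcoplasmic reticulum encoded by Ryr1. Casq1 encodes calsequestrin, which buffers calcium in that store, Atp2a1 encodes the SERCA1 pump that refills it, and Ckm encodes the muscle creatine kinase that regenerates ATP. MEF2 factors bind an AT-rich site at many muscle genes and act together with the MyoD family, whose members bind E-boxes. The promoter and upstream enhancer of Ckm are textbook examples of such control. Mef2Da2 is the muscle-specific splice isoform of Mef2D, and Mef2Da1 is the broadly expressed isoform.

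The 2 highest Mef2Da1 heights of the 28 regions were in the Ryr1 and Atp2a1 windows, and the 2 highest Mef2Da2 heights in the Ryr1 and Cacna1s windows. Height is the maximal read coverage in a region, a whole number that was not adjusted for depth. Listed peaks of both isoforms lay in 8 of the 28 regions, a Mef2Da2 peak alone in 8, a Mef2Da1 peak alone in 1 and no listed peak in 11. The windows of Ryr1, Cacna1s, Atp2a1, Chrnd and Chrng, and Ckm each held at least 1 region with listed peaks of both isoforms, and the Casq1 window held none. A Mef2Da1 peak was thus found in 9 of 28 regions (32.1%), against 41.8% of all combined regions, and a Mef2Da2 peak in 16 of 28 (57.1%), against 46.7%. Listed peaks of both were found in 28.6% of the window regions and 26.6% of all, and no listed peak in 39.3% and 38.1%, so these last shares were near those of the whole table.

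The start of each gene was placed only approximately, by taking 50 kb off each side of its window. The resulting spans differed from the RefSeq gene lengths (assembly GRCm38.p6) by at most 1.24 kb. Lengths alone were compared, so the position of each edge was not checked. The strand in RefSeq then gave the end of the span at which the gene starts, called its start-side edge; for Chrnd and Chrng the lower edge of the shared span was used, because the rule gives no edge between these genes. Region distances below are from this edge to the region's midpoint. Of the 8 regions with listed peaks of both isoforms, 5 lay within 2.5 kb of the start-side edge (2 of them at Ckm), against 2 of the other 20 regions. Within 5 kb the counts were 5 of 8 and 6 of 20. Both distances were chosen after the values were seen, and no test was made. How often regions of either kind lie near gene starts over all combined regions was not counted. These counts therefore cannot be called particular to the loci.

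RefSeq promoter sequences (assembly GRCm38.p6) were found for 6 of the 7 genes, all but Chrnd. The 250 bases before the start are shown for 3 of them, because the start-side edge of Ckm and of Cacna1s lay inside a region with listed peaks of both isoforms, while that of Casq1 lay inside a region with no listed peak. Sequences run 5′ to 3′ on the gene's strand, and capitals mark E-boxes (CANNTG, searched on both strands).
Ckm (chromosome 7, plus strand): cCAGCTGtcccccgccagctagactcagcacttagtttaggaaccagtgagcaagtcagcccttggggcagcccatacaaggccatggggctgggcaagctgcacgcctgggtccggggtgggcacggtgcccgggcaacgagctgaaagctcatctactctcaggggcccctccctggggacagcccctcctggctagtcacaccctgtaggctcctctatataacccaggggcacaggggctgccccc
Cacna1s (chromosome 1, plus strand): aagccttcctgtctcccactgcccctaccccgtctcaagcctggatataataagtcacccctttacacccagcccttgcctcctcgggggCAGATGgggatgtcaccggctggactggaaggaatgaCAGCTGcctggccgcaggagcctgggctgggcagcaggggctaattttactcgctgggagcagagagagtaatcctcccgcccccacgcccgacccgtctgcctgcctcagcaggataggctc
Casq1 (chromosome 1, minus strand): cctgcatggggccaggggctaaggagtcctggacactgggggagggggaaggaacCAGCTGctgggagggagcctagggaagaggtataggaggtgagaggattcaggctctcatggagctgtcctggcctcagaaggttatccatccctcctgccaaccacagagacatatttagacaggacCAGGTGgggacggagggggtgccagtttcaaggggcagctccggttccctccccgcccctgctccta

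None of the 6 promoter sequences matched the MEF2 consensus, which was present in 2.92% of 32851 RefSeq promoters of the same length. Nor did any match a core form, CTA and TAG with any 4 bases between them, present in 3.20%. Any overlap between these forms was allowed. No match says only that these letters are not in the 250 bases. E-boxes were present in 5 of the 6, against 66.2% of all promoters: 3 before Chrng, 2 each before Cacna1s and Casq1, 1 each before Atp2a1 and Ckm, and none before Ryr1. CAGCTG was found in each of those 5 promoters, but this form was picked out after the matches were seen. Its share over all promoters was not computed, so the count cannot be called particular to these genes. The Ckm window of 250 bases does not reach the upstream enhancer, and the peaks themselves could not be read as sequence because no genome of the build mm9 was used here.

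**Figure D1:**
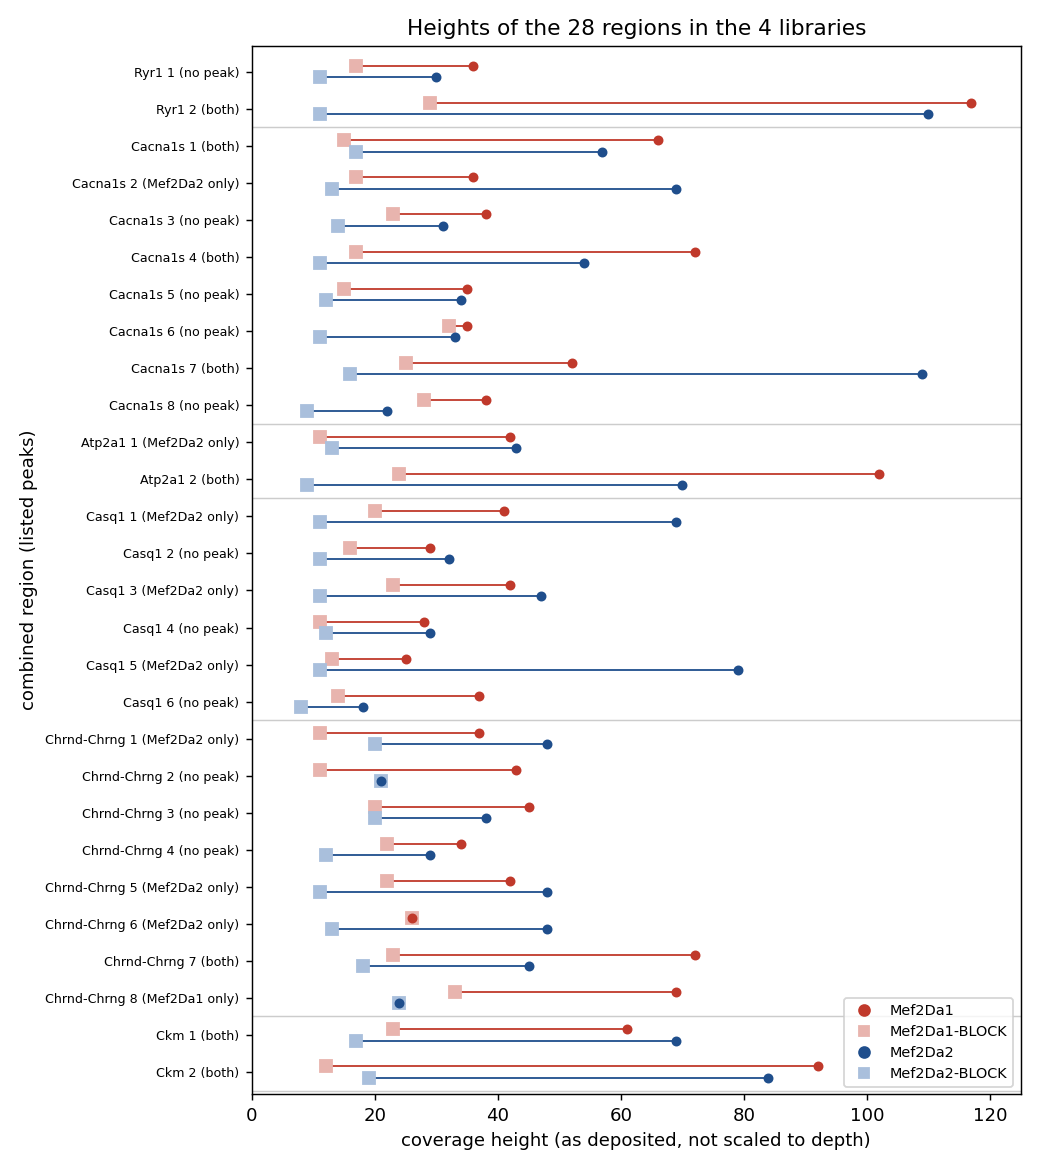
Coverage height (horizontal axis, as deposited) of each of the 28 regions, numbered along the chromosome within each window, in the 4 libraries. Circles are the isoforms, squares their blocked controls, and each line joins an isoform to its own control; the class of listed peaks is in brackets. The lines are longest at Ryr1 region 2 (117 and 110 against 29 and 11), and at 3 points of the Chrnd-Chrng window the circle falls on the square.

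The voltage sensor gene Cacna1s had the most regions with peaks of both isoforms, 3 of its 8. At its start-side edge, chromosome 1, 137948762 to 137949663, the Mef2Da1 height was 72 (blocked control 17) and the Mef2Da2 height 54 (blocked control 11). The isoforms were 4.06-fold and 4.58-fold above the controls there, without scaling and with a pseudocount of 1. The Mef2Da2 peak of 421 bp lay wholly within the 720 bp Mef2Da1 peak, and their midpoints were 51.5 bp apart. So the region over the approximate start was occupied by both isoforms, with a −log10 p in the authors' table of 10.35 for Mef2Da1 and 8.66 for Mef2Da2. Which isoform was higher depended on scaling. The log2 ratio of Mef2Da1 to Mef2Da2 was 0.38 with each library scaled to its total height over the table. It was −0.19 with the totals of the blocked controls.

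Further into Cacna1s, 14.3 kb past the start-side edge, the balance was different. The region at chromosome 1, 137962890 to 137963695, was high in Mef2Da2, at 109 (control 16), and lower in Mef2Da1, at 52 (control 25). Mef2Da2 was 2.11-fold above Mef2Da1 after each library was scaled to its total height over the table, 1 of the 2 window regions more than 2-fold toward Mef2Da2. The Mef2Da2 height exceeded that of 93.8% of all combined regions, and the Mef2Da1 height that of 70.0%. Mef2Da1 nevertheless had a listed peak there, with a −log10 p of 7.51, against 18.24 for Mef2Da2, and these peaks had the widest midpoint distance of all 8 pairs in the windows, 81.5 bp.

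The third Cacna1s region with both peaks lay far outside the gene, 44.5 kb before the start-side edge. At chromosome 1, 137903966 to 137905041, the heights were 66 for Mef2Da1 and 57 for Mef2Da2, against 15 and 17. These were 4.19-fold and 3.22-fold above the controls. In the same flank, 13.0 kb before the edge, the region at chromosome 1, 137935483 to 137936489, had a Mef2Da2 peak alone, with heights of 69 for Mef2Da2 and 36 for Mef2Da1 against 13 and 17. Mef2Da2 was 1.93-fold above Mef2Da1 there after scaling. The neighbouring gene on that side in RefSeq order is Ascl5, and proximity does not assign these regions to either gene.

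The other 4 Cacna1s regions had no listed peak, with heights of 35 to 38 for Mef2Da1 and 22 to 34 for Mef2Da2. At chromosome 1, 137958950 to 137959296, the Mef2Da1 height of 35 was barely above the Mef2Da1-BLOCK height of 32, a ratio of 1.09-fold. The blocked control itself was high there, above 95.3% of all regions, while Mef2Da2 stood at 33 against 11. At chromosome 1, 138016718 to 138017110, near the far end of the gene, Mef2Da1 had 38 against 28 and Mef2Da2 22 against 9. Mef2Da1 was thus less than 2-fold above its control at both of these places. It was also below 2-fold at chromosome 1, 137946978 to 137947544, with 38 against 23 (1.62-fold). At chromosome 1, 137957126 to 137958215, it was 2.25-fold above.

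The calcium release channel gene Ryr1 had the strongest region of the 28 by either isoform, and it lay 1.0 kb past the start-side edge. At chromosome 7, 29908567 to 29909511, the Mef2Da1 height was 117 (Mef2Da1-BLOCK 29) and the Mef2Da2 height 110 (Mef2Da2-BLOCK 11). These heights exceeded those of 97.4% and 93.9% of all combined regions. Mef2Da1 was 3.93-fold and Mef2Da2 9.25-fold above the control. The larger fold of Mef2Da2 came with the lower control: Mef2Da1-BLOCK stood above 90.3% of all regions there and Mef2Da2-BLOCK above 38.2%.

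The listed Ryr1 peaks were also long and nearly coincident. The Mef2Da1 peak spanned 803 bp and the Mef2Da2 peak 889 bp, with 798 bp in common, and the −log10 p values were 18.74 and 19.09 in the lists. They ranked 531 of 8872 and 1262 of 10105. The Ryr1 window is the longest of the 6, at 222 kb, and held the fewest regions per length, 9.01 per Mb. That was near the 8.25 per Mb between the first and last region of each chromosome. The window's only other region, with no listed peak, lay 154.8 kb from the edge in the far flank. Its heights were 36 and 30 against 17 and 11. A region with peaks of both isoforms, with heights of 70 for Mef2Da1 and 61 for Mef2Da2, lay 4.3 kb outside the window.

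The calsequestrin gene Casq1 stood apart from the others in having no listed Mef2Da1 peak in its window, against 4 listed Mef2Da2 peaks. This depended on where the window ended. The nearest region outside, 11.5 kb beyond it, had a Mef2Da1 peak alone, with heights of 50 for Mef2Da1 and 19 for Mef2Da2. The region at the start-side edge of Casq1, chromosome 1, 174149964 to 174150481, had no peak of either isoform, with heights of 28 for Mef2Da1 and 29 for Mef2Da2 against 11 and 12. Inside the gene, 2.6 kb past that edge, the region at chromosome 1, 174147223 to 174147591, had a Mef2Da2 peak with a height of 47 against 11, and Mef2Da1 had 42 against 23. The isoforms differed by 1.14-fold at this place after scaling to the total, although 1 list alone held a peak there. With the totals of the blocked controls the log2 ratio was −0.75, toward Mef2Da2. The Mef2Da2 peak was weak, with a −log10 p above only 24.9% of the Mef2Da2 list.

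The stronger Mef2Da2 peaks of the Casq1 window were in the flanks. At chromosome 1, 174176613 to 174177070, 26.8 kb before the start-side edge, Mef2Da2 reached 79 against 11, while Mef2Da1 had 25 against 13. This was the largest difference toward Mef2Da2 among the 28 regions, at 3.13-fold after scaling, with Mef2Da2 above 87.4% and Mef2Da1 above 4.12% of all regions. At chromosome 1, 174099989 to 174100566, in the opposite flank, Mef2Da2 had 69 against 11 and Mef2Da1 41 against 20.

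The highest listed peak of any window was also a Mef2Da2 peak of this flank. It spanned chromosome 1, 174172393 to 174173008, 22.7 kb before the Casq1 start-side edge, with a height of 122 and a −log10 p of 22.48, rank 866 in the Mef2Da2 list. It lay in no combined region, so Mef2Da1 and the blocked controls could not be read there. It was 1 of 687 such Mef2Da2 peaks, 6.80% of the list. The next gene on that side in RefSeq order is Atp1a4, a sodium pump subunit gene. The remaining Casq1 regions had no listed peak. One of them, chromosome 1, 174177726 to 174178108, lay only 655 bp from the region most tilted toward Mef2Da2. Mef2Da1 was 1.97-fold above Mef2Da2 there after scaling to the total, with heights of 37 and 18. These were low, above 29.5% and 3.30% of all combined regions.

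**Figure D2:**
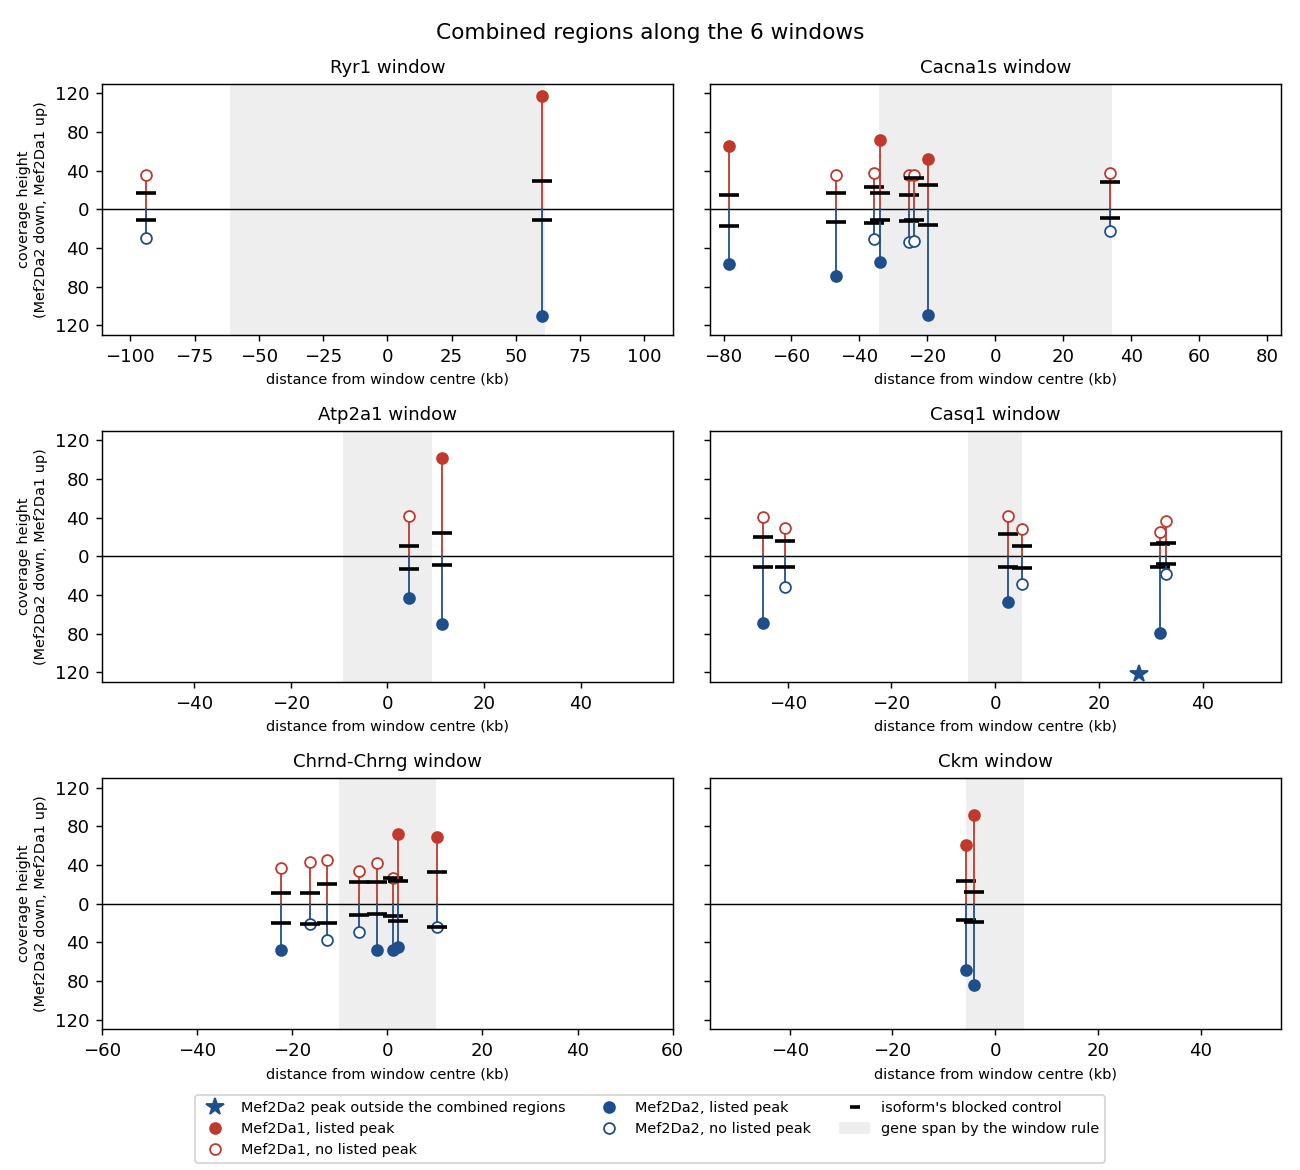
Height of Mef2Da1 (upward) and Mef2Da2 (downward) at each region along the 6 windows, in kb from the window's centre; black bars are the isoform's own blocked control, filled circles have a listed peak and the shaded band is the gene span given by the window rule. The tall pairs at Ryr1, Atp2a1 and Ckm stand at or near an end of the band, and in the Casq1 window filled circles point downward only, with the star marking the Mef2Da2 peak of height 122 that lay in no combined region.

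The calcium pump gene Atp2a1 had 2 regions, and the higher lay 2.3 kb before its start-side edge. At chromosome 7, 133608906 to 133609684, the heights were 102 for Mef2Da1 (control 24) and 70 for Mef2Da2 (control 9), which was 4.12-fold and 7.10-fold above the controls. Mef2Da1 was above 96.1% and Mef2Da2 above 84.0% of all combined regions. The ratio of the isoforms was 1.42-fold toward Mef2Da1 after scaling to the total (log2 0.51), but the direction turned (log2 −0.06) with the totals of the blocked controls, and the whole Mef2Da2 peak of 375 bp lay within the 616 bp Mef2Da1 peak. The Mef2Da1 height of 102 was the second-highest of the 28 regions.

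Within Atp2a1, 4.6 kb past the edge, the region at chromosome 7, 133602083 to 133602699, carried a listed Mef2Da2 peak alone. Its heights were nevertheless alike, 43 for Mef2Da2 and 42 for Mef2Da1, against 13 and 11. The −log10 p was 6.66 for Mef2Da2 and 5.07 for Mef2Da1, and no listed peak of either isoform in the deposited data was below 6. A peak listed for 1 isoform alone thus went with like heights as deposited. The log2 ratio of Mef2Da1 to Mef2Da2 was −0.06 after scaling to the total, but −0.63 with the totals of the blocked controls.

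The acetylcholine receptor genes Chrnd and Chrng shared the window with the most regions per length, 8 in 120 kb or 66.7 per Mb. Over all 6 windows the density was 33.0 per Mb, and it ranged from 9.01 at Ryr1 to that of this window. Between the first and last region of each chromosome it was 8.25 per Mb, stretches without genes included. The density around other genes was not computed, so that of the windows cannot be called particular to the loci. No Mef2Da2 height in the Chrnd and Chrng window exceeded 48, while Mef2Da1 reached 72, and the medians of the isoforms were 42.5 for Mef2Da1 and 41.5 for Mef2Da2. The Mef2Da2 blocked control was high in the same window, with a median of 19, against 11 to 18 in the other windows.

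Within the shared gene span, 12.2 kb past its lower edge, the region at chromosome 1, 89101981 to 89102448, had peaks of both isoforms. Mef2Da1 stood at 72 and Mef2Da2 at 45, against 23 and 18. The midpoints of the peaks were 4 bp apart, the closest of the 8 pairs. Only 52 bp before it lay the region from 89100406 to 89101928, with a Mef2Da2 peak alone, where Mef2Da2 had 48 against 13 and Mef2Da1 had 26 against 26 in its control. Adjacent regions thus differed in the isoform that was high, 1.56-fold toward Mef2Da1 in the former and 1.85-fold toward Mef2Da2 in the latter after scaling to the total; the former's log2 ratio of 0.64 was 0.07 with the totals of the blocked controls.

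The sole region of the 28 with a Mef2Da1 peak alone lay at the upper edge of the span; Eif4e2 is the next gene on that side in RefSeq order. At chromosome 1, 89109656 to 89111095, Mef2Da1 had 69 against 33, and Mef2Da2 had 24 against 24 in its own control. Both blocked controls were high there, above 96.4% and 96.8% of all combined regions, and the part of this background in the Mef2Da1 height was not tested. Mef2Da1 was 2.75-fold above Mef2Da2 after scaling, the largest difference toward Mef2Da1 in the windows.

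A further pair of regions with Mef2Da2 peaks alone completed this window. At chromosome 1, 89097320 to 89098194, Mef2Da2 had 48 against 11 and Mef2Da1 42 against 22. At chromosome 1, 89077484 to 89077909, 12.3 kb before the span, they had 48 against 20 and 37 against 11. In the 3 regions with no listed peak Mef2Da1 ranged from 34 to 45 and Mef2Da2 from 21 to 38. The highest Mef2Da1 and Mef2Da2 heights of any region without a listed peak, 45 and 38, were both at chromosome 1, 89087041 to 89087446, against 20 and 20. At chromosome 1, 89083554 to 89084001, Mef2Da2 and Mef2Da2-BLOCK were both 21, while Mef2Da1 had 43 against 11.

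The creatine kinase gene Ckm had 2 regions, both at its start-side edge and both with peaks of the 2 isoforms. The first, chromosome 7, 19995001 to 19996749, was the widest of the 28 at 1749 bp and contained the edge itself. Mef2Da1 reached 61 and Mef2Da2 69 there, against 23 and 17. The second followed after 409 bp, at chromosome 7, 19997159 to 19997634, 1.4 kb past the edge, with Mef2Da1 at 92 and Mef2Da2 at 84 against 12 and 19. The isoforms were within 1.15-fold of each other in both regions after scaling to the total, whereas the totals of the blocked controls gave log2 ratios of −0.77 and −0.47, toward Mef2Da2, and the rest of the 111 kb window held no region.

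The listed peaks within the wide Ckm region differed between the isoforms. It contained 2 listed Mef2Da1 peaks, at 19995006 to 19995571 with a height of 56 and at 19995917 to 19996628 with a height of 61, and a single Mef2Da2 peak, at 19995053 to 19995557 with a height of 69. The Mef2Da2 peak lay wholly within the first of the Mef2Da1 peaks, and the second overlapped no listed Mef2Da2 peak. The Mef2Da2 height under that second peak could not be read, because each region has a single height per library. Only 158 of the 19749 combined regions contained 2 or more Mef2Da1 peaks. The first pair lay 0.7 kb before the edge and the second Mef2Da1 peak 0.3 kb past it, distances that carry the uncertainty of the edge. In the second region the Mef2Da1 height was 7.15-fold above its control, the largest fold for Mef2Da1 in the windows, and the Mef2Da2 height 4.25-fold.

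Set against the blocked controls without scaling, Mef2Da1 was at least 2-fold higher in 19 of the 28 regions (67.9%), against 64.7% of all combined regions, and Mef2Da2 in 25 (89.3%), against 75.0%. The median log2 ratio to the control in the windows was 1.09 for Mef2Da1 (1.19 over all regions) and 1.58 for Mef2Da2 (1.63 over all regions). Mef2Da1 exceeded its control in 27 regions and Mef2Da2 in 26; the exceptions, all in the Chrnd and Chrng window, were ties. These ratios depended on scaling. Scaled to the total height of each library over the table, the second Ckm region alone stayed at least 2-fold above control for Mef2Da1 (log2 ratio 1.53) and the strong Ryr1 region alone for Mef2Da2 (1.34), and the shares over all regions were 7.98% and 15.8%. Scaled to the median ratio, the regions at Ryr1, Atp2a1 (before its edge), Casq1 (26.8 kb before the edge) and Cacna1s (14.3 kb past it) passed for Mef2Da2, 14.3% of the window regions against 20.1% of all, and the second Ckm region again for Mef2Da1, 3.57% against 9.75%. Depth is unknown, and no scaling was tested against it.

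Between the isoforms, 25 of the 28 regions were within 2-fold after scaling to the total. Mef2Da1 was over 2-fold higher in 1 region (Chrnd and Chrng window, upper edge of the span), 3.57% against 9.62% of all regions. Mef2Da2 was over 2-fold higher in 2 regions (Casq1 and Cacna1s windows), 7.14% against 7.03%. The median log2 ratio of Mef2Da1 to Mef2Da2 was 0.06 in the windows and 0.17 over all regions, and it was lowest in the Casq1 window (−0.17) and highest in the Atp2a1 window (0.23). Which isoform was higher more often changed with the scaling: Mef2Da1 in 16 regions and Mef2Da2 in 12 after scaling to the total, 12 and 16 after scaling to the median ratio, and 5 and 23 after scaling to the totals of the blocked controls. The count over 2-fold toward Mef2Da2 rose from 2 to 4 with the median ratio and to 5 with the totals of the blocked controls, and that toward Mef2Da1 was 1 and 0. The Casq1 and Cacna1s regions named above were among those over 2-fold toward Mef2Da2 under each of these, while the region at the upper edge of the Chrnd and Chrng span came to a log2 ratio of 0.89 with the totals of the blocked controls. That scaling moved the median of all regions from 0.17 to −0.40. Spearman's correlation between the isoforms' heights was 0.39 across the 28 regions and 0.31 over all regions; the points share the same libraries.

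**Figure D3:**
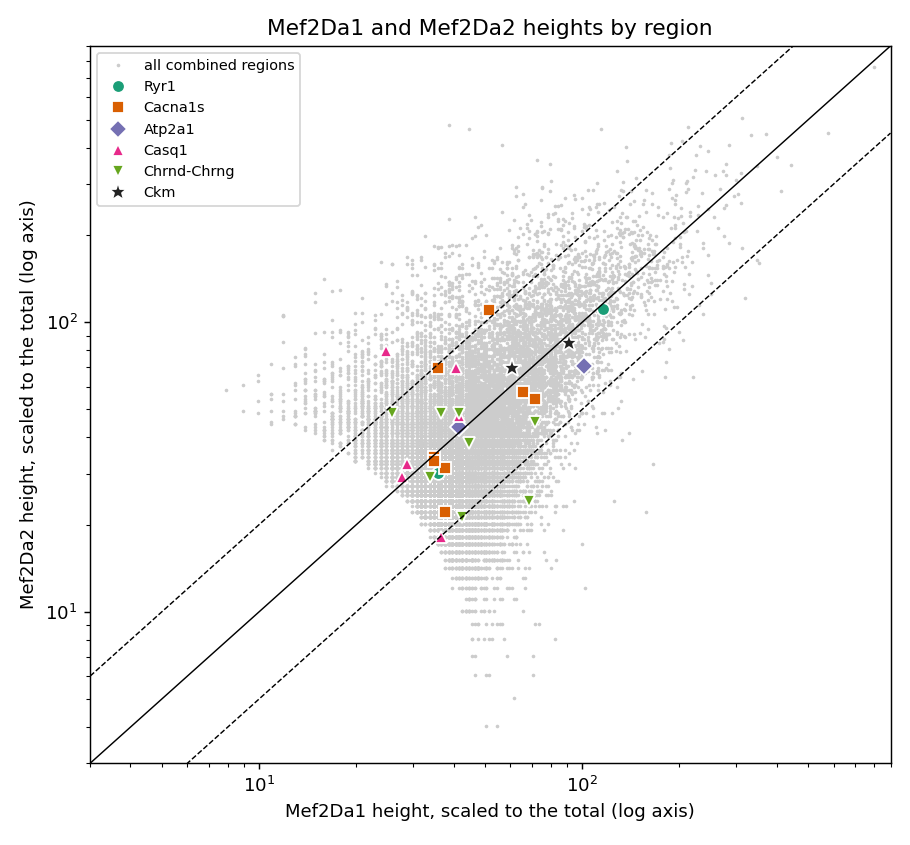
Mef2Da1 height against Mef2Da2 height, each scaled to its library's total over the table (log axes), for all 19749 combined regions (grey) and the 28 window regions (coloured by window). The solid line marks equal heights and the dashed lines 2-fold differences; most window regions lie between the dashed lines, and the Ryr1, Atp2a1 and Ckm regions with peaks of both isoforms are at the upper right.

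By position, 8 of the 10 Mef2Da1 peaks in the windows overlapped a Mef2Da2 peak by at least 1 bp, 80.0% against 61.6% of the whole list. Of the 17 Mef2Da2 peaks, 8 overlapped a Mef2Da1 peak, 47.1% against 54.6%. The 8 pairs had a median midpoint distance of 23.5 bp. Mef2Da1 peaks of the windows were wide, with a median of 620.5 bp against 430 bp in the list, and Mef2Da2 peaks had 407 bp against 346 bp. Their median −log10 p was 10.1 and 11.2, against 8.10 and 9.21 in the lists. By counts as few as these, none of the shares can be called particular to the loci.

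Over the 8 regions with a Mef2Da2 peak alone, the Mef2Da1 height had a lowest value of 25, a median of 39 and a highest of 42, against a median of 18.5 in its control. Over all regions of this class the medians were 34 and 15. Mef2Da2 had a median of 48 against 12 in these 8. The 11 regions without a listed peak had medians of 36 for Mef2Da1 and 30 for Mef2Da2, against 37 and 28 over all regions of the class. The windows have fixed ends, and the region nearest to any of them on the inside was the Cacna1s region 5.0 kb within (heights 66 and 57), while the nearest on the outside lay 2.1 kb beyond the same window (40 and 32, no listed peak). A strong region with peaks of both isoforms, with heights of 136 and 110, lay 18.2 kb outside the Ckm window.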

How the data were processed

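Mouse libraries in 4 groups were compared, 1 per group, by the antibody in the sample titles. The submitters' processing notes name BWA 0.5.9 and mm9; the peak caller, filters and choice of combined regions, not given in the sources used here, are unknown. The authors deposited a coverage signal (maximal height, whole numbers, not scaled to depth) per peak and region, and a −log10 p for each. For the blocked libraries the deposited −log10 p column was treated as a score, since some values lie below 0. Columns of the table were assigned to samples by the Alpha and Prime names that the samples' peak lists carry.

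Members and lists were chosen with earlier results of these data known. Regions and peaks overlapping a window by 1 bp were members. Ratios used a pseudocount of 1, unscaled against blocked controls and scaled to total height between isoforms. Every region with a listed peak was named, as was a listed peak outside the combined regions; of the others, the highest of each isoform was named, and a few more were singled out after their values were seen. Peak starts were made 1-based; region coordinates are as in the table. RefSeq gene order, strand and promoters are of GRCm38.p6, and none of its coordinates were used. Overlap, ratio and motif code was tested on simulated data. The software was Python 3.11.15 with SciPy 1.17.1, pandas 2.3.3, Matplotlib 3.10.9 and NumPy 2.4.6.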

Additional observations from a re-analysis of the deposited data

How the results depend on the processing

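Leaving out a replicate was not possible, and no paired analysis was possible because each group has 1 library and the titles carry no replicate number. Windows cut back by 25 kb on each side kept 22 of the 28 regions, and by 50 kb 16, fewer by construction. Of the listed peaks, 8 of 10 for Mef2Da1 and 10 of 17 for Mef2Da2 reached the median −log10 p of their list. Overlap of at least 50% of each peak left the 8 pairs. The 2-fold count over the blocked control, 19 regions for Mef2Da1 and 25 for Mef2Da2, fell to 1 and 1 on scaling by total height (7.98% and 15.8% of all regions passed) and to 1 and 4 on scaling by the median ratio (9.75% and 20.1% of all); a pseudocount of 5 gave 14 and 22 (54.4% and 67.6% of all). The median log2 ratio to the control became −0.23 (Mef2Da1) and −0.28 (Mef2Da2) when scaled by total, −0.11 and −0.05 when scaled by the median ratio, and 0.98 and 1.33 under a pseudocount of 5; both scalings equate an isoform with its control over the table by construction. The median log2 ratio of Mef2Da1 to Mef2Da2 (0.06) was 0.09 without scaling, −0.11 with median scaling, −0.51 with the blocked controls' totals and 0.06 with a pseudocount of 5. Unknown depth limits every comparison of heights between libraries.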

Other observations

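The −log10 p of the lists and of the combined table did not always match in the windows. They differed by over 0.5 for 2 of 10 Mef2Da1 peaks and 3 of the 16 Mef2Da2 peaks that lay in a combined region. The widest gap was at the Casq1 region most tilted toward Mef2Da2, with 14.05 in the list and 12.87 in the table. The same height also went with unlike values: the 3 regions with a Mef2Da2 height of 69 had a −log10 p from 11.19 to 12.11 in the table.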
